A study of Homo sapiens with 60 samples.

Results

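The genes described here are glycine N-methyltransferase (GNMT) and 7 further genes of the methionine cycle (BHMT, MAT1A, MAT2A, MAT2B, AHCY, CBS and PEMT), chosen by gene symbol from the 60675 genes of an RNA sequencing count table. All 8 symbols were matched to an Ensembl identifier, and all 8 were among the 16093 genes kept after a filter on low counts. The cells were HepG2, an established line from a human hepatocellular carcinoma, treated for 24 h and sequenced as 60 libraries in 20 groups of 3. The groups were wortmannin at 10 µM, an inhibitor of phosphoinositide 3-kinases used as the positive control; water extracts of Poria Cocos (Poria), Glycyrrhizae Radix (licorice), Atractylodis Rhizoma (Atractylodes), Panax Ginseng (ginseng), Angelicae Gigantis Radix (angelica) and Paeoniae Radix (peony), each at 20, 100 and 500 µg/mL; and the vehicle, 0.1% DMSO by the sample labels and 2% by the series description. No group carries a genetic change, every group is the same cell line, and a hepatoma line models only part of what a hepatocyte does. GNMT was chosen with its low level under Poria at 500 µg/mL already known, so its values in any comparison that includes Poria are given as a description without a test. The other members and the further pathway genes below were also chosen with earlier results of these data known. Their p-values and counts are therefore not independent of that choice.

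The methionine cycle makes S-adenosylmethionine, the methyl donor of most cellular methylation, and recovers methionine after the methyl group is used. In liver, methionine adenosyltransferase I/III (catalytic subunit MAT1A) makes S-adenosylmethionine, GNMT uses the excess by methylating glycine to sarcosine, adenosylhomocysteinase (AHCY) splits the product to homocysteine, and homocysteine is either methylated back to methionine with betaine (BHMT) or drawn into cysteine synthesis by cystathionine beta-synthase (CBS). GNMT, BHMT and MAT1A are abundant in adult liver and often low in hepatoma cells, in which MAT2A, the catalytic subunit of the form made outside the liver, is usually prominent.

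The libraries held 20.9 to 33.4 M expected counts (median 26.1 M), so that 3 counts corresponded to 0.0899 to 0.144 CPM, the count scaled to the library's total. Tested differences and folds also carry a further scaling factor per library (TMM, 0.926 to 1.03), so they differ from ratios of the CPM given. With Poria at 500 µg/mL, CPM lie lower against vehicle, Poria at 20 µg/mL and Atractylodes than on the tested scale. Ranks and overlaps in CPM for that group carry this gap. Hepatocyte markers were abundant in every library (ALB 10300 to 16900 CPM, AFP 13100 to 18500 CPM), whereas the blood cell marker PTPRC was at 0 in all of them and the 6 fibroblast markers summed to at most 0.728 CPM; of the 6 blood cell markers only LYZ was high, at 1280 to 2810 CPM. Of 3 adult hepatocyte genes, CYP3A4 and CYP2E1 did not exceed 1 CPM in any library and CPS1 ran between 39.1 and 78.5 CPM. Their sum, nearly all CPS1, averaged 41.7 CPM at 500 µg/mL of Poria and 72.5 CPM at 20 µg/mL. It was 56.0 CPM at 500 µg/mL of licorice and 68.2 CPM at 20 µg/mL, and 60.7 CPM with wortmannin against 70.2 CPM in vehicle. The hepatocyte marker list, which includes ALB and AFP, summed to 64000 CPM at 500 µg/mL of Poria and 66500 CPM at 20 µg/mL. That sum was 54000 and 68500 CPM at these doses of licorice, and 72500 CPM with wortmannin against 65000 CPM in vehicle. The part of either sum in any result was not tested. The sample titles put all 60 libraries in the same batch, BatchA. The sample codes start with a label, here called a set. It is A1 for vehicle, 1 for wortmannin, 2 for Poria and Atractylodes, 3 for licorice and ginseng, and 4 for angelica and peony. What a set stands for is not given, so a difference between any treatment and vehicle cannot be told apart from a difference between sets; 500 against 20 µg/mL of an extract, and the 2 extracts of a set at 500 µg/mL, compare libraries of the same set. The share of counts from the mitochondrial genome averaged 12.6% with Poria at 500 µg/mL, 12.4% with wortmannin and between 9 and 12.7% over all groups, and its part in any result was not tested. The labels do not say whether replicate libraries were grown as separate cultures, so p-values reflect only how far these libraries differ, which may be technical. The same vehicle libraries serve every comparison with vehicle.

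Several members differed with wortmannin and with Poria and licorice at 500 µg/mL, and none passed the test with Atractylodes or ginseng (edgeR quasi-likelihood test, Benjamini-Hochberg adjusted p under 0.05 over all genes tested; a gene past this threshold is called). Against vehicle, wortmannin called 6 of 8 members (4 higher, 2 lower; 46.3% of all genes tested were called), and Poria called 4 of the 7 members other than GNMT, all lower (47.6% of all genes). Licorice called 5 of 8 (3 higher, 2 lower; 32.4%), peony 2 of 8 (19.7%), angelica 1 of 8 (18.9%), and ginseng (10.2%) and Atractylodes (0.889%) none. Between 500 and 20 µg/mL, Poria called 5 of the 7 other than GNMT (1 higher, 4 lower; 43.5%), licorice 4 of 8 (2 higher, 2 lower; 21.3%), angelica 1 of 8 (1.22%), and peony (3.49%), ginseng (0.149%) and Atractylodes (0.0497%) none. Between the extracts of a set at 500 µg/mL, Poria against Atractylodes called 4 of the 7 other than GNMT (42.9%), licorice against ginseng 5 of 8 (22.4%) and angelica against peony 1 of 8 (6.17%). On a list this short, a share of members near that of all genes, as for Poria against vehicle, is no result about the members. Where no member was called, the unadjusted p was under 0.05 for 2 members with Atractylodes against vehicle, for 2 with peony between doses and for none in the other 3 comparisons; DESeq2 also called none in these 5. The median log2 difference of the 7 members other than GNMT was 0.127 for wortmannin against vehicle and -0.245 for Poria at 500 against 20 µg/mL, beside 0.009 and -0.01 over all genes.

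GNMT, the methyltransferase that makes sarcosine and buffers the S-adenosylmethionine level, lies on the forward strand at chr6:42960758-42963880 (GRCh38, GENCODE v29). It varied most of the 8 members: its highest group mean was 10.1 times its lowest, against 2.91 times for BHMT and 1.26 to 1.71 times for the other 6. Its lowest mean was that of Poria at 500 µg/mL, known when GNMT was chosen, so this rank is only a description. Outside Poria its group means ran between 2.95 CPM (licorice at 500 µg/mL) and 14.4 CPM (wortmannin). GNMT stood at 14.5, 14.1 and 14.4 CPM in the wortmannin libraries, against 6.47, 7.37 and 5.70 CPM in the vehicle libraries. All 3 wortmannin libraries were above every other library of the study. The level was 2.23-fold higher with wortmannin (log2 difference 1.16 ± 0.105 SE; edgeR adjusted p = 1.9e-13, higher in 3 of 3 libraries). In a bulk library, fewer cells expressing a gene and less transcript per cell cannot be told apart.

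With Poria, GNMT measured 4.82, 4.835 and 6.25 CPM at 20 µg/mL, 2.73, 2.49 and 2.71 CPM at 100 µg/mL, and 1.23, 1.52 and 1.53 CPM at 500 µg/mL. The 3 doses did not overlap, and the counts behind the highest dose were 34, 38 and 35 reads, so this level carries the largest counting error of the 20 groups. As a description, the 500 µg/mL level in the fit with TMM scaling was 3.51-fold below that at 20 µg/mL and 4.25-fold below vehicle. In CPM, the means at 100 and 500 µg/mL were 0.406 and 0.219 of the vehicle mean. Atractylodes, in the same set, held GNMT at 5.72, 5.75 and 5.71 CPM on average at 20, 100 and 500 µg/mL.

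Licorice was the other extract with lower GNMT. The licorice libraries held 4.25, 4.63 and 5.13 CPM at 20 µg/mL, 3.18, 3.38 and 4.65 CPM at 100 µg/mL, and 3.03, 2.61 and 3.21 CPM at 500 µg/mL. The lowest and the highest dose did not overlap, while the middle dose reached into both. GNMT fell 1.58-fold between 500 and 20 µg/mL (log2 difference -0.66 ± 0.137 SE; edgeR adjusted p = 0.000213). At 500 µg/mL it was 2.05-fold lower with licorice than with ginseng (-1.03 ± 0.133; edgeR adjusted p = 2.16e-08), whose libraries held 5.07, 6.61 and 6.29 CPM. Against vehicle it was 2.21-fold lower (-1.15 ± 0.129; edgeR adjusted p = 5.96e-10), across sets. These calls held under every alternative run and without any 1 library.

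The other 4 extracts showed no called GNMT difference. Between 500 and 20 µg/mL the log2 differences were -0.03 for Atractylodes (95% interval -0.27 to 0.21), -0.13 for ginseng (-0.37 to 0.11), -0.09 for angelica (-0.33 to 0.15) and -0.07 for peony (-0.31 to 0.17). The intervals for all 4 lie above the licorice estimate of -0.66, and they do not show that the extracts left GNMT unchanged. Against vehicle, across sets, the difference was -0.24 for angelica (-0.477 to -0.009, edgeR adjusted p = 0.141) and -0.27 for peony (-0.50 to -0.03, 0.102). These 2 intervals, not adjusted for the number of genes, lie below 0. For Atractylodes it was -0.20 (-0.44 to 0.03) and for ginseng -0.11 (-0.35 to 0.12). A joint test of whether the 500 against 20 µg/mL difference was equal over the 5 extracts other than Poria gave an edgeR adjusted p of 0.0654 for GNMT. That value crossed the threshold when genes under 1 CPM on average were left out (0.0497), with no filter (0.0405) and with the replicate number as a block (0.0488). In this joint test no member was called by edgeR (4 of 8 had an unadjusted p under 0.05; DESeq2 called 1), and 10.8% of all genes were called.

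Ordered by group mean, GNMT was lowest in Poria 500, then Poria 100, Licorice 500, Licorice 100, Licorice 20 and Poria 20 µg/mL. Above these came 12 extract groups between 5.43 and 6.59 CPM and the vehicle at 6.51 CPM, and wortmannin stood at the top with 14.4 ± 0.187 CPM (SD, n = 3). Of the 19 steps between neighbours in that order, 17 joined groups whose libraries overlapped. The 2 steps without overlap were Poria 500 against Poria 100 µg/mL and wortmannin against ginseng at 20 µg/mL. The plot of GNMT and BHMT by treatment shows these levels library by library.

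**Figure D1:**
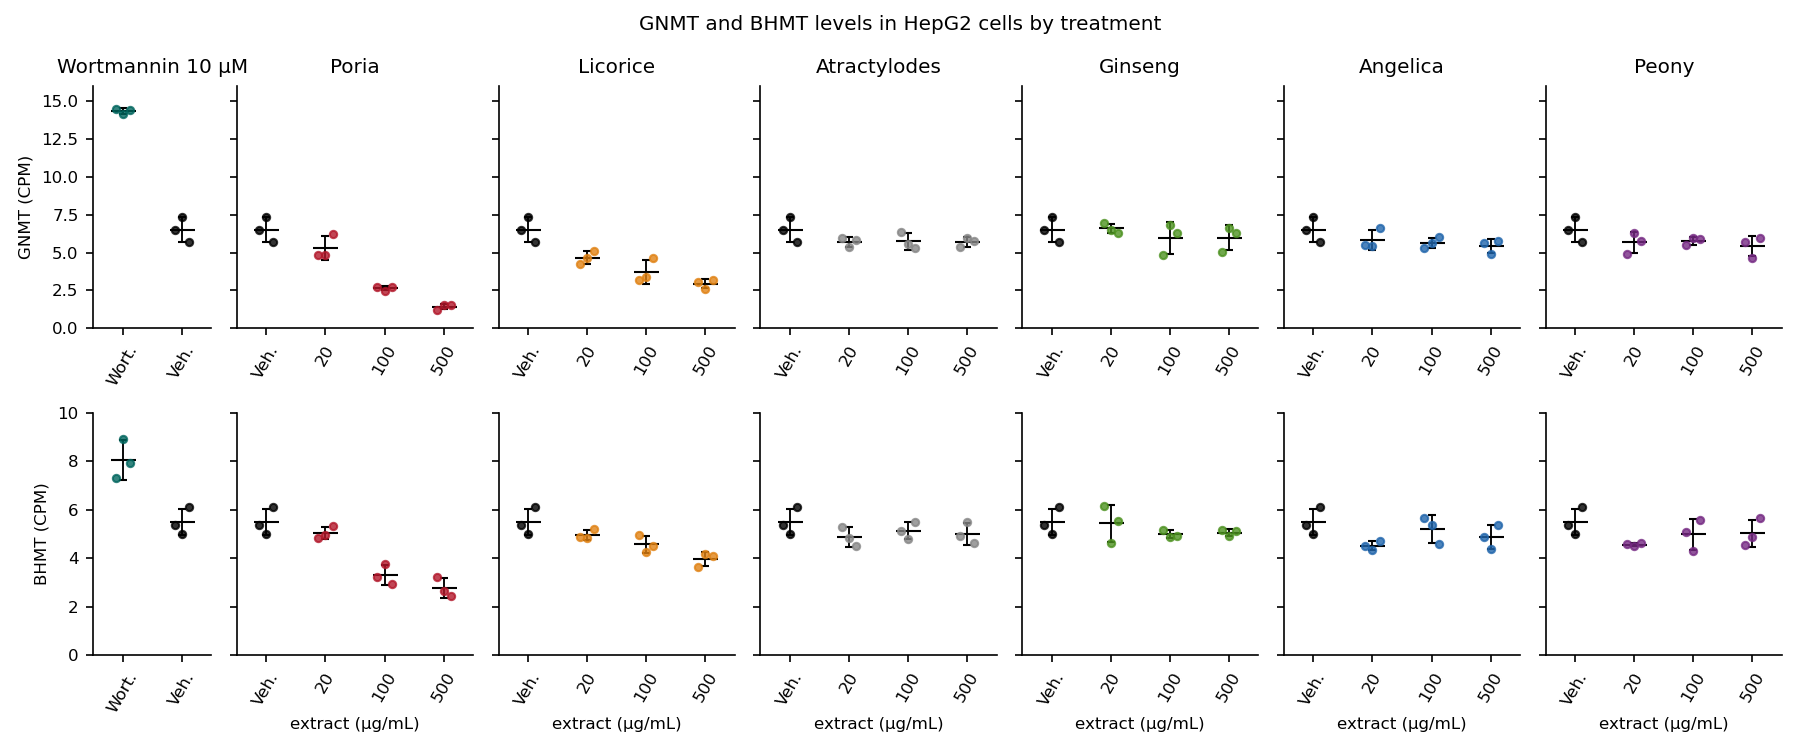
CPM of GNMT (upper row) and BHMT (lower row) in each library; points are libraries, horizontal marks the group means and bars the SD (n = 3), with wortmannin (Wort.) beside vehicle (Veh.) at the left and each extract in dose order after the same 3 vehicle libraries. GNMT averaged 14.4 CPM with wortmannin and 1.43 CPM with Poria at 500 µg/mL, against 6.51 CPM in vehicle, and BHMT took the same direction in both groups.

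The GNMT gene overlaps PEX6 (chr6:42963870-42979220), a peroxisome assembly gene on the opposite strand chosen for its position and with its values in view, by 11 bp at their 3' ends. PEX6 averaged 12.2 ± 0.911 CPM with wortmannin and 7.89 ± 0.345 CPM in vehicle (SD, n = 3; 1.56-fold, edgeR adjusted p = 3.1e-08). Between doses it was lower with Poria (log2 difference -0.31 ± 0.0995; edgeR adjusted p = 0.00849, but 0.0701 without Poria 500 replicate 1 and 0.108 without Poria 20 replicate 2) and with licorice (-0.36 ± 0.0965; edgeR adjusted p = 0.00442). The library kit keeps strand, but how the counting step used strand is not given in the sources used here; whether reads of the overlap move between the genes was not tested.

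Phosphatidylethanolamine N-methyltransferase (PEMT, chr17:17505563-17591708, reverse strand), which uses 3 S-adenosylmethionine molecules to make phosphatidylcholine, did not follow GNMT. With licorice it measured 23.1, 22.6 and 25.7 CPM at 500 µg/mL, against 18.9, 20.1 and 20.6 CPM at 20 µg/mL. The groups did not overlap, and PEMT rose 1.19-fold (log2 difference 0.26 ± 0.0652 SE; edgeR adjusted p = 0.00275). It was also higher with licorice than with ginseng at 500 µg/mL (0.21 ± 0.0652; edgeR adjusted p = 0.0146, but 0.0941 without Licorice 500 replicate 3) and than in vehicle (0.20 ± 0.0642; edgeR adjusted p = 0.0153, but 0.113 without that library and 0.0597 without Vehicle replicate 3). With Poria, PEMT was 19.4, 19.8 and 18.2 CPM at 500 µg/mL, against 16.2, 17.8 and 18.1 CPM at 20 µg/mL. It rose 1.16-fold between these doses (edgeR adjusted p = 0.00716, but 0.0607 without Poria 20 replicate 1), while against vehicle Poria at 500 µg/mL gave a log2 difference of -0.0015 ± 0.066. All 19 neighbouring groups overlapped for PEMT, the only member of which this held.

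MAT1A (chr10:80271820-80289684, reverse strand) and MAT2A (chr2:85539165-85545280, forward strand) encode the catalytic subunits that make S-adenosylmethionine, and MAT2B (chr5:163503114-163519336, forward strand) encodes a regulatory subunit that pairs with MAT2A. MAT1A measured 197, 202 and 199 CPM with Poria at 500 µg/mL, against 284, 286 and 296 CPM at 20 µg/mL. The groups were far apart, and MAT1A fell 1.37-fold (log2 difference -0.46 ± 0.0337 SE; edgeR adjusted p = 3.07e-16). The 100 µg/mL libraries lay between, at 238.8 to 250.5 CPM. With Poria, MAT1A was also 1.33-fold lower than with Atractylodes at 500 µg/mL (edgeR adjusted p = 9.59e-15) and 1.29-fold lower than in vehicle (edgeR adjusted p = 2.36e-13).

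The catalytic subunits had opposite signs with wortmannin. MAT1A was 318, 317 and 325 CPM in the wortmannin libraries, against 275, 287 and 271 CPM in vehicle (1.17-fold higher; edgeR adjusted p = 1.8e-07). MAT2A was 228, 243 and 229 CPM with wortmannin, against 284, 294 and 288 CPM in vehicle (1.22-fold lower; edgeR adjusted p = 3.09e-07). Neither pair of groups overlapped. MAT1A per kb of longest transcript was 1.14 ± 0.048 times MAT2A with wortmannin and 0.795 ± 0.016 times MAT2A in vehicle (SD, n = 3). Which gene is the higher one depends on the length used: over the union of annotated exons the same ratios were 1.67 and 1.17. With either length wortmannin had the highest ratio of the 20 groups.

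Both catalytic subunits were lower at the high dose of Poria. MAT2A was 217, 199 and 193 CPM with Poria at 500 µg/mL, against 263, 256 and 247 CPM at 20 µg/mL (1.19-fold lower; edgeR adjusted p = 6.22e-06), and the groups did not overlap. It was 1.32-fold lower than in vehicle (edgeR adjusted p = 1.17e-10). The ratio of MAT1A to MAT2A per kb of longest transcript was 0.936, 0.956 and 0.814 on average at 20, 100 and 500 µg/mL of Poria.

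Licorice and angelica went the other way for MAT1A. With licorice it was 286, 304 and 307 CPM at 500 µg/mL, against 275, 255 and 272 CPM at 20 µg/mL (1.11-fold higher; edgeR adjusted p = 0.00038). With angelica it was 303, 298 and 289 CPM at 500 µg/mL, against 264, 269 and 274 CPM at 20 µg/mL (1.11-fold higher; edgeR adjusted p = 0.00648). Neither extract's dose groups overlapped. The angelica call was lost when the fit held only the libraries compared (0.285) and with no filter (0.211). Against vehicle, MAT1A was 1.07-fold higher with licorice (edgeR adjusted p = 0.0212) and 1.08-fold higher with angelica (0.0183). The licorice call was lost without Vehicle replicates 1 or 3 or Licorice 500 replicates 2 or 3 (0.0689 to 0.0932), and the angelica call without Vehicle replicates 1 or 3 or Angelica 500 replicates 1 or 2 (0.0619 to 0.0884). Both were also lost at a mean of at least 1 CPM (licorice 0.0693, angelica 0.0518), with no filter (0.263 and 0.236) and with only the libraries compared (0.0733 and 0.065). Licorice against ginseng at 500 µg/mL gave 0.09 ± 0.0335 on the log2 scale (edgeR adjusted p = 0.0352), a call lost without Licorice 500 replicates 2 or 3 or Ginseng 500 replicates 1 or 2 (0.075 to 0.105), with no filter (0.423) and with only the libraries compared (0.104). MAT2A did not pass the test with licorice against vehicle (0.10 ± 0.0442; edgeR adjusted p = 0.0912, or 0.0461 without Poria 100 replicate 1 in the fit) and was 1.11-fold lower with peony than in vehicle (edgeR adjusted p = 0.0145), a call lost without Vehicle replicate 2 (0.051) or Peony 500 replicate 2 (0.0833). Angelica against peony at 500 µg/mL gave 0.13 ± 0.0444 for MAT2A (edgeR adjusted p = 0.0605), which passed without Peony 500 replicate 1 (0.0384) or Angelica 500 replicate 2 (0.0488), without Poria 100 replicate 1 in the fit (0.0305), with the replicate block (0.0376), with only the libraries compared (0.0355) and with DESeq2 (0.0325).

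**Figure D2:**
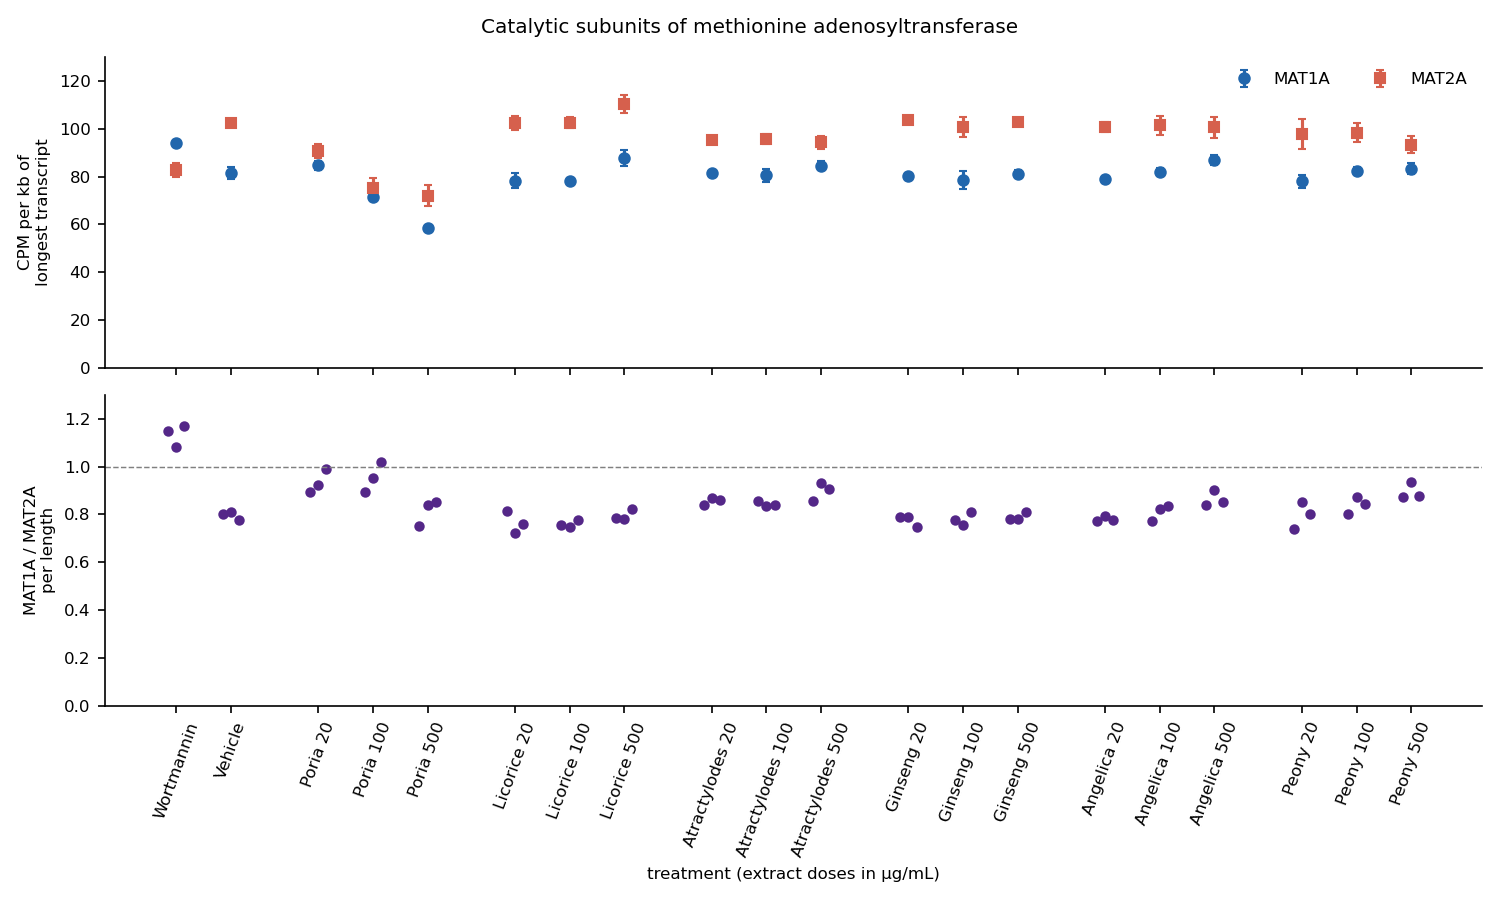
Upper panel: mean CPM per kb of longest transcript of MAT1A and MAT2A by group, with bars for the SD (n = 3); lower panel: the MAT1A to MAT2A ratio in each library, with a dashed line at 1. The ratio averaged 1.14 with wortmannin and 0.795 in vehicle, and both genes lay lowest with Poria at 500 µg/mL.

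MAT2B moved little. It measured 29.01, 33.9 and 33.0 CPM with Poria at 500 µg/mL, against 37.0, 37.2 and 38.3 CPM at 20 µg/mL (1.11-fold lower; edgeR adjusted p = 0.0223). Without Poria 500 replicate 1, the lowest library, the adjusted p was 0.252, and without Poria 20 replicate 3 it was 0.065; the call was also lost with no filter (0.0529) and with only the libraries compared (0.055). With wortmannin it was 33.9, 31.9 and 33.8 CPM, against 37.8, 36.8 and 36.5 CPM in vehicle (1.10-fold lower; edgeR adjusted p = 0.0305), a call lost without Vehicle replicates 1 or 3 or Wortmannin replicates 2 or 3 (0.0537 to 0.125). It was 1.16-fold lower with Poria than with Atractylodes at 500 µg/mL (edgeR adjusted p = 0.00112).

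AHCY (chr20:34280268-34311802, reverse strand) varied least. Its enzyme hydrolyses S-adenosylhomocysteine, a product of S-adenosylmethionine-dependent methyltransferases that inhibits many of them. The AHCY group means ran between 349 and 438 CPM. It was 414, 451 and 450 CPM with licorice at 500 µg/mL, against 378, 401 and 387 CPM with ginseng at that dose (1.11-fold higher; edgeR adjusted p = 0.0012). Against vehicle, at 397, 401 and 376 CPM, licorice was also 1.11-fold higher (edgeR adjusted p = 0.000958). The licorice libraries lay above all vehicle and ginseng libraries of these comparisons. Between the licorice doses the difference did not pass the test (log2 difference 0.08 ± 0.0371; edgeR adjusted p = 0.111), though it did without Licorice 500 replicate 1 (0.0378) or Licorice 20 replicate 2 (0.0288). Poria at 500 µg/mL had the lowest AHCY mean in CPM, 349 ± 15.5 (SD, n = 3), beside 402 CPM with Atractylodes at that dose. The tested log2 difference between these groups, -0.09 ± 0.0372, was smaller than the CPM imply and did not pass (edgeR adjusted p = 0.0595). It passed without Poria 500 replicate 2 (0.0278), without Poria 100 replicate 1 in the fit (0.0427) and when genes under 1 CPM on average were left out (0.0302).

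Betaine-homocysteine S-methyltransferase (BHMT, chr5:79111779-79132290, forward strand), which returns homocysteine to methionine with betaine as the methyl donor, was the member most like GNMT. It measured 3.21, 2.64 and 2.45 CPM with Poria at 500 µg/mL, against 4.82, 4.96 and 5.33 CPM at 20 µg/mL. The groups did not overlap, and BHMT fell 1.71-fold (log2 difference -0.77 ± 0.118 SE; edgeR adjusted p = 3.67e-07). It was 1.65-fold lower with Poria than with Atractylodes at 500 µg/mL (edgeR adjusted p = 1.47e-06) and 1.83-fold lower than in vehicle (edgeR adjusted p = 1.13e-08).

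With wortmannin, BHMT was 7.33, 8.94 and 7.91 CPM, against 5.37, 5.01 and 6.10 CPM in vehicle. The 3 wortmannin libraries were above every vehicle library, a 1.49-fold rise (0.57 ± 0.0986; edgeR adjusted p = 3.16e-06). With licorice it was 3.65, 4.18 and 4.10 CPM at 500 µg/mL, against 4.87, 4.83 and 5.21 CPM at 20 µg/mL. The doses did not overlap, and BHMT was 1.26-fold lower (-0.33 ± 0.112; edgeR adjusted p = 0.0259). That call was lost with DESeq2 (0.0569), with no filter (0.0806), with only the libraries compared (0.0561) and without Licorice 500 replicates 1 or 3 or Licorice 20 replicates 1 or 3 (0.0533 to 0.127). BHMT was 1.40-fold lower with licorice than in vehicle (edgeR adjusted p = 0.000457) and 1.29-fold lower than with ginseng at 500 µg/mL (0.0123), the second call being lost without Licorice 500 replicate 1 (0.0803) and reaching 0.05 without Ginseng 500 replicate 1.

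The neighbouring paralogue BHMT2 (chr5:79069717-79089466), whose enzyme uses S-methylmethionine as its methyl donor, had the opposite sign to BHMT between doses of Poria and licorice and the same sign with wortmannin. It averaged 27.1 ± 0.97 CPM with Poria at 500 µg/mL and 18.2 ± 1.23 CPM at 20 µg/mL (SD, n = 3; 1.57-fold higher, edgeR adjusted p = 6.46e-13). With licorice it averaged 27.5 ± 1.52 CPM at 500 µg/mL and 16.3 ± 0.733 CPM at 20 µg/mL (1.67-fold higher, edgeR adjusted p = 5.55e-14). With wortmannin it averaged 19.5 ± 0.644 CPM, against 17.8 ± 0.0945 CPM in vehicle (1.11-fold higher, edgeR adjusted p = 0.0389), a call lost without Vehicle replicates 1, 2 or 3 or Wortmannin replicates 1 or 2 (0.0689 to 0.158), with no filter (0.266) and with DESeq2 (0.0778).

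Across the 20 group means, GNMT and BHMT had a Pearson correlation of 0.961, GNMT and MAT1A 0.758, and BHMT and MAT1A 0.779. The other pairs of members lay between -0.193 (MAT2B and PEMT) and 0.652 (MAT2A and MAT2B). By Spearman's correlation GNMT and MAT1A had only 0.241, and MAT1A had the opposite sign to GNMT between doses of licorice. The groups share sets and one normalisation, and these values are a description. GNMT, BHMT and MAT1A had the same sign as each other under wortmannin and under Poria, while MAT2A had the opposite sign to them under wortmannin. CBS summed with its near-identical copy CBSL had the same signs as GNMT, BHMT and MAT1A, but its window is not shown. The windows around the start sites of GNMT, BHMT and MAT1A are shown beside that of MAT2A. Each sequence is 300 bases, 250 before the RefSeq start and 50 from it, 5′ to 3′ on the gene's strand (GRCh38.p14). Capitals mark matches, on either strand, to the 2 motifs of 6 searched that were found in these 4 windows, CCAAT (read ATTGG on the other strand) and the TATA box TATAAA; no matches overlapped.
GNMT, chr6:42960504-42960803, forward strand: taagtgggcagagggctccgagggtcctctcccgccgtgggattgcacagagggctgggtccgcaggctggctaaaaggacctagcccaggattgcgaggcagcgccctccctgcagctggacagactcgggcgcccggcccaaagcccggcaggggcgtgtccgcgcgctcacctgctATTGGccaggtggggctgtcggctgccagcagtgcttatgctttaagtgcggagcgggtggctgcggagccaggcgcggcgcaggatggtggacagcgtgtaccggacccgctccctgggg
BHMT, chr5:79111559-79111858, forward strand: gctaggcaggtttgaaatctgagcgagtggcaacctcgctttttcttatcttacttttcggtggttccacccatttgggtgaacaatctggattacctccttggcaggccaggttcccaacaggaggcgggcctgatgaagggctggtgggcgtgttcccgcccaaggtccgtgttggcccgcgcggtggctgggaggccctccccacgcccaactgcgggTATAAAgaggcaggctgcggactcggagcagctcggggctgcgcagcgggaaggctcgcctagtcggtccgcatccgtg
MAT1A, chr10:80289609-80289908, reverse strand: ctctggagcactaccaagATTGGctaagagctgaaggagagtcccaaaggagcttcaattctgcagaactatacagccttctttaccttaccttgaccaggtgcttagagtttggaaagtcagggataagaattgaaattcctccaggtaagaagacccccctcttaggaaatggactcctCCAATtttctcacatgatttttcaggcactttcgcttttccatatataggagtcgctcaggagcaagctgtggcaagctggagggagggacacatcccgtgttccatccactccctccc
MAT2A, chr2:85538918-85539217, forward strand: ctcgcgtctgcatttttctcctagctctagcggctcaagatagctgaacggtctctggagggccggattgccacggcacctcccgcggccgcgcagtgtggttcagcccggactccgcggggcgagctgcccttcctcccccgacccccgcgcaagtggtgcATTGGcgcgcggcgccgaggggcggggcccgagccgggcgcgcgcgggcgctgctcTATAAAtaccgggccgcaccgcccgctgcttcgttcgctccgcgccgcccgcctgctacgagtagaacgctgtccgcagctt

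BHMT and MAT2A held TATAAA, starting 29 and 32 bases before the start site; the motif is present in 11.5% of the 35116 promoter windows of the same length. GNMT, MAT1A and MAT2A held CCAAT on at least 1 strand, as did 34.6% of all windows. None of the 4 windows held the FOXO motif TGTTTAC (3.42% of all windows), the insulin response sequence CAAAACA (4.92%), the antioxidant response element TGACNNNGC (13.3%) or the E-box CACGTG (7.26%). That says only that these letters are not in these windows. The CBS window, not shown, held a match to the antioxidant response element on the opposite strand, starting 83 bases before the start site. The windows of GNMT and MAT2A were 69.3 and 71% G and C, that of BHMT 62.3% and that of MAT1A 48%.

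CBS, the first enzyme of transsulfuration, is annotated at chr21:43053191-43076943 and has a near-identical annotated copy, CBSL, at chr21:6444869-6468040. The counting step divided shared reads between the genes, and the CBSL share of their summed counts ran between 0.204 and 39.9% (median 0.772%). It was above 5% in 9 of 60 libraries, with the highest value in Licorice 100 replicate 1, where CBS alone read 30.6 CPM, against 56.8 and 57.9 CPM in the other libraries of that group. Values of CBS alone are therefore uncertain, and the sum is given beside them.

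CBS was highest with peony. The CBS and CBSL sum was 80.3, 84.0 and 79.0 CPM with peony at 500 µg/mL, against 67.8, 68.5 and 63.8 CPM at 20 µg/mL. The groups did not overlap, and the sum rose 1.20-fold (log2 difference 0.27 ± 0.0467 SE; edgeR adjusted p = 0.000121), whereas CBS alone gave 0.26 ± 0.103 (edgeR adjusted p = 0.178). At 500 µg/mL the sum was 1.28-fold lower with angelica than with peony (edgeR adjusted p = 5.1e-07; CBS alone 1.33-fold, 0.0078, or 0.0689 without Angelica 500 replicate 1), and with peony it was 1.299-fold higher than in vehicle (2.68e-08; CBS alone 0.0042).

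Poria had the lowest CBS. The sum was 48.17, 48.9 and 45.2 CPM with Poria at 500 µg/mL, against 62.5, 58.8 and 61.2 CPM at 20 µg/mL (1.21-fold lower, edgeR adjusted p = 4.16e-06). CBS alone did not pass (0.0579), but did at a mean of at least 1 CPM (0.0397), with no filter (0.000107) and with only the libraries compared (0.0018). The sum was 1.165-fold lower than with Atractylodes at 500 µg/mL (edgeR adjusted p = 0.000193). For CBS alone this was 0.102, or 0.00103 with no filter and 0.00191 with only the libraries compared. Against vehicle the sum was 1.21-fold lower with Poria (edgeR adjusted p = 6.48e-06) and 1.18-fold higher with wortmannin (4.21e-05). For CBS alone the corresponding adjusted p-values were 0.0406 and 0.0419; the Poria call was lost with DESeq2 (0.054) and when Poria 500 replicate 1, 2 or 3 or Vehicle replicate 1 or 2 was left out (0.0647 to 0.149), and the wortmannin call with DESeq2 (0.0661) and when Wortmannin replicate 1, 2 or 3 or Vehicle replicate 1 or 3 was left out (0.0605 to 0.139).

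**Figure D3:**
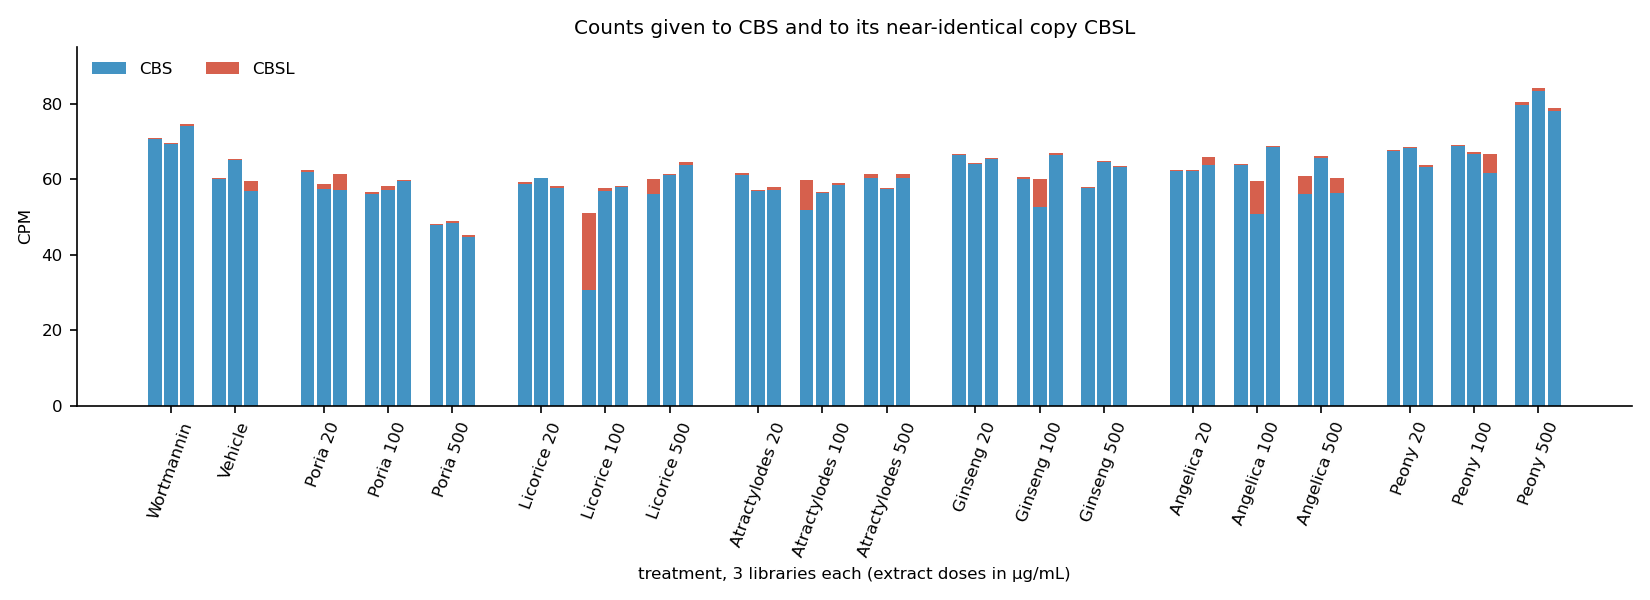
Stacked bars give the CPM assigned to CBS and to CBSL in each library, 3 libraries per group. The CBSL part reaches 39.9% of the sum in 1 library with licorice at 100 µg/mL, and the sum is highest with peony and lowest with Poria at 500 µg/mL.

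Whether the difference between 500 and 20 µg/mL was equal over the 6 extracts was tested jointly for the 7 members other than GNMT, and 4 of 7 were called, against 35.1% of all genes. These were MAT1A (edgeR adjusted p = 2.85e-15), BHMT (3.89e-05), MAT2A (0.000334) and PEMT (0.023, but 0.0693 with no filter); the CBS and CBSL sum also passed (3.04e-07). MAT1A differed in direction, being lower at the high dose of Poria and higher at that of licorice and angelica. Over the 5 extracts without Poria, the sum of CBS and CBSL remained called (edgeR adjusted p = 0.00179). MAT1A (0.0858, or 0.0304 with DESeq2), BHMT (0.17), MAT2A (0.268) and PEMT (0.0837) did not pass in edgeR.

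**Figure D4:**
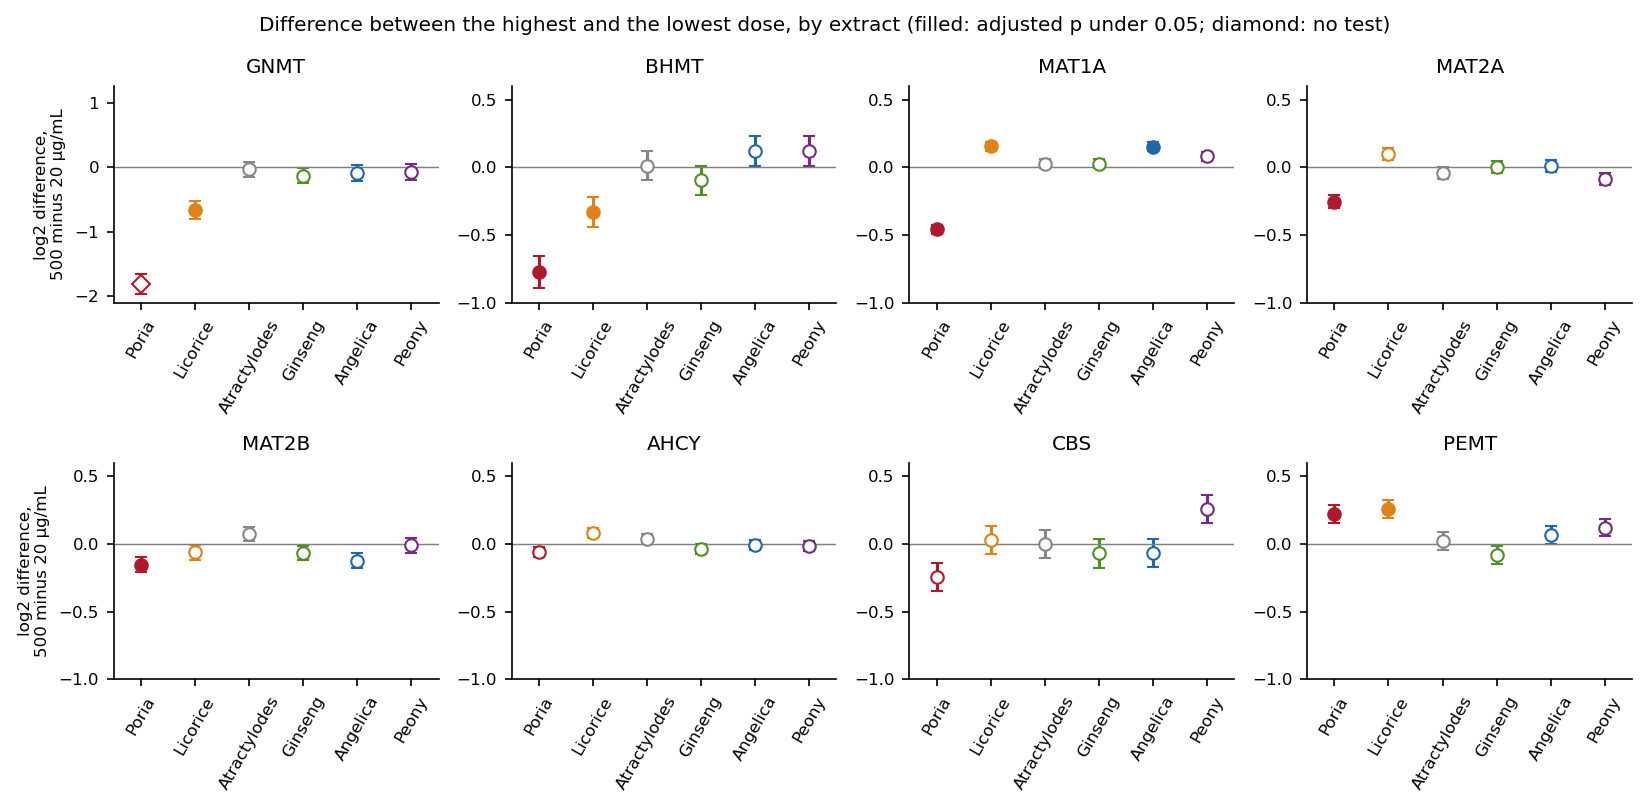
Log2 difference between 500 and 20 µg/mL of each extract for the 8 members, with bars for the SE; filled points have an adjusted p under 0.05, and the diamond is the untested GNMT value of Poria. The GNMT panel has its own scale, with Poria at -1.81 and licorice at -0.66.

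Around the 8 members, 50 further genes of the pathway were listed in 6 groups, of which 48 passed the low-count filter (NNMT and INMT did not). Wortmannin against vehicle called 35 of 48 (19 higher, 16 lower), Poria at 500 against 20 µg/mL 28 (13 higher, 15 lower) and licorice at 500 against 20 µg/mL 21 (10 higher, 11 lower), against 46.3, 43.5 and 21.3% of all genes. Peony called 3, angelica 1, and Atractylodes and ginseng none in edgeR or DESeq2 between these doses, with an unadjusted p under 0.05 for 3 and 6 of the 48.

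Genes that handle choline, betaine and sarcosine were mostly lower with Poria. Of 8, 6 fell and 1 rose between 500 and 20 µg/mL, beside 43.5% of all genes called (median log2 difference -0.353, beside -0.01 over all genes). With licorice 5 fell and 1 rose, beside 21.3% of all genes (median -0.144, beside 0). Wortmannin had 5 higher and 3 lower, beside 46.3% of all genes (median 0.151, beside 0.009). SARDH and DMGDH, the dehydrogenases that demethylate sarcosine and dimethylglycine, are named here after their values were seen: SARDH had a log2 difference of -0.42 ± 0.0455 (edgeR adjusted p = 5.49e-11) and DMGDH of -0.46 ± 0.116 (0.00102) with Poria, and 0.41 ± 0.0433 (2.88e-11) and 0.44 ± 0.103 (0.000377) with wortmannin. With licorice, SARDH averaged 55.4 ± 0.552 CPM at 500 µg/mL and 64.6 ± 2.1 CPM at 20 µg/mL (SD, n = 3; edgeR adjusted p = 0.000114). CHKA, choline kinase alpha, fell between these doses with licorice (1.17-fold, edgeR adjusted p = 5.11e-05), angelica (1.14-fold, 0.00881) and peony (1.23-fold, 1.86e-06). The angelica call was lost without Angelica 500 replicate 2 (0.138) and with only the libraries compared (0.223). CHDH, choline dehydrogenase, rose 1.12-fold with peony (edgeR adjusted p = 0.0177), a call lost without Peony 500 replicates 1 or 3 or Peony 20 replicate 2 (0.0508 to 0.173) and with only the libraries compared (0.108).

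In transsulfuration and sulfur metabolism, wortmannin called 6 of 8 genes, all higher, beside 46.3% of all genes (median log2 difference 0.303, beside 0.009). CTH, which cleaves cystathionine to cysteine, averaged 13.6 ± 0.517 CPM with wortmannin and 8.46 ± 1.14 CPM in vehicle (1.62-fold; edgeR adjusted p = 3.29e-09), and TST, a mitochondrial sulfurtransferase, was 1.56-fold higher (3.57e-08). With Poria, 3 fell and 1 rose between doses, a share near the 43.5% of all genes called (median -0.092, beside -0.01). CSAD, which decarboxylates cysteine sulfinate on the way to taurine, averaged 3.09 ± 0.397 CPM at 500 µg/mL and 6.12 ± 0.37 CPM at 20 µg/mL (1.88-fold lower; edgeR adjusted p = 1.97e-08). CDO1, cysteine dioxygenase, was 1.81-fold lower with Poria (6.08e-11) and 1.40-fold lower with licorice (3.02e-05). SQOR, a mitochondrial sulfide oxidase, averaged 38.7 ± 2.8 CPM at 500 µg/mL of Poria and 22.5 ± 0.972 CPM at 20 µg/mL (1.81-fold higher; edgeR adjusted p = 7.89e-16). With peony, CTH rose 1.35-fold between doses (edgeR adjusted p = 0.00296).

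Genes of polyamine metabolism and methylthioadenosine salvage gave 7 higher and 0 lower of 14 with Poria between doses, a share called near the 43.5% of all genes (median log2 difference 0.155, beside -0.01). With wortmannin against vehicle 2 were higher and 9 lower, beside 46.3% of all genes called (median -0.183, beside 0.009). SAT1, the acetyltransferase that starts polyamine breakdown, averaged 308 ± 8.88 CPM at 500 µg/mL of Poria and 171 ± 12.6 CPM at 20 µg/mL (SD, n = 3; 1.91-fold; edgeR adjusted p = 1.03e-19), and SMOX, spermine oxidase, rose 1.65-fold (3.67e-14). ODC1, ornithine decarboxylase, averaged 201 ± 5.46 CPM with wortmannin and 349 ± 13.1 CPM in vehicle (1.71-fold lower; edgeR adjusted p = 4.58e-21), and SMS, spermine synthase (1.29-fold, 5.68e-11), and ENOPH1 of methylthioadenosine salvage (1.27-fold, 1.08e-08) were also lower. PAOX, a polyamine oxidase, was 2.02-fold higher with wortmannin at a low level, 1.27 ± 0.0904 CPM against 0.63 ± 0.206 CPM in vehicle (edgeR adjusted p = 0.00428). With licorice 6 rose and 2 fell between doses, beside 21.3% of all genes called. ODC1 was 1.28-fold (edgeR adjusted p = 2.66e-09), SMOX 1.34-fold (4.16e-07) and MRI1 1.27-fold (4.32e-06) higher.

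Of 7 methyltransferases tested, 4 fell and 1 rose with Poria between doses, beside 43.5% of all genes called (median log2 difference -0.125, beside -0.01). GAMT, which makes creatine, averaged 48.5 ± 1.98 CPM at 500 µg/mL and 77.5 ± 4.13 CPM at 20 µg/mL (1.51-fold lower; edgeR adjusted p = 5.97e-11), and AS3MT, which methylates arsenic, was 1.48-fold lower (2.32e-10). Of 6 remethylation and cobalamin genes, 3 rose and 1 fell with wortmannin against vehicle, beside 46.3% of all genes called. Between doses 2 rose and 1 fell with Poria (43.5% of all genes) and 1 rose and 1 fell with licorice (21.3%). On a list this short these counts are no result about the genes. BHMT2 was among the rises with both extracts. ADK, adenosine kinase, was 1.31-fold lower with wortmannin (6.95e-07).

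Wortmannin against vehicle and Poria at 500 against 20 µg/mL share no library. Of the 48 genes, 21 were called in both comparisons, 11 with opposite and 10 with the same sign (52.4% opposite, beside 47.6% of the 4092 genes called in both among all genes tested). Of the members other than GNMT, 4 were called in both. BHMT and MAT1A had opposite signs, and MAT2A and MAT2B were lower in both.

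**Figure D5:**
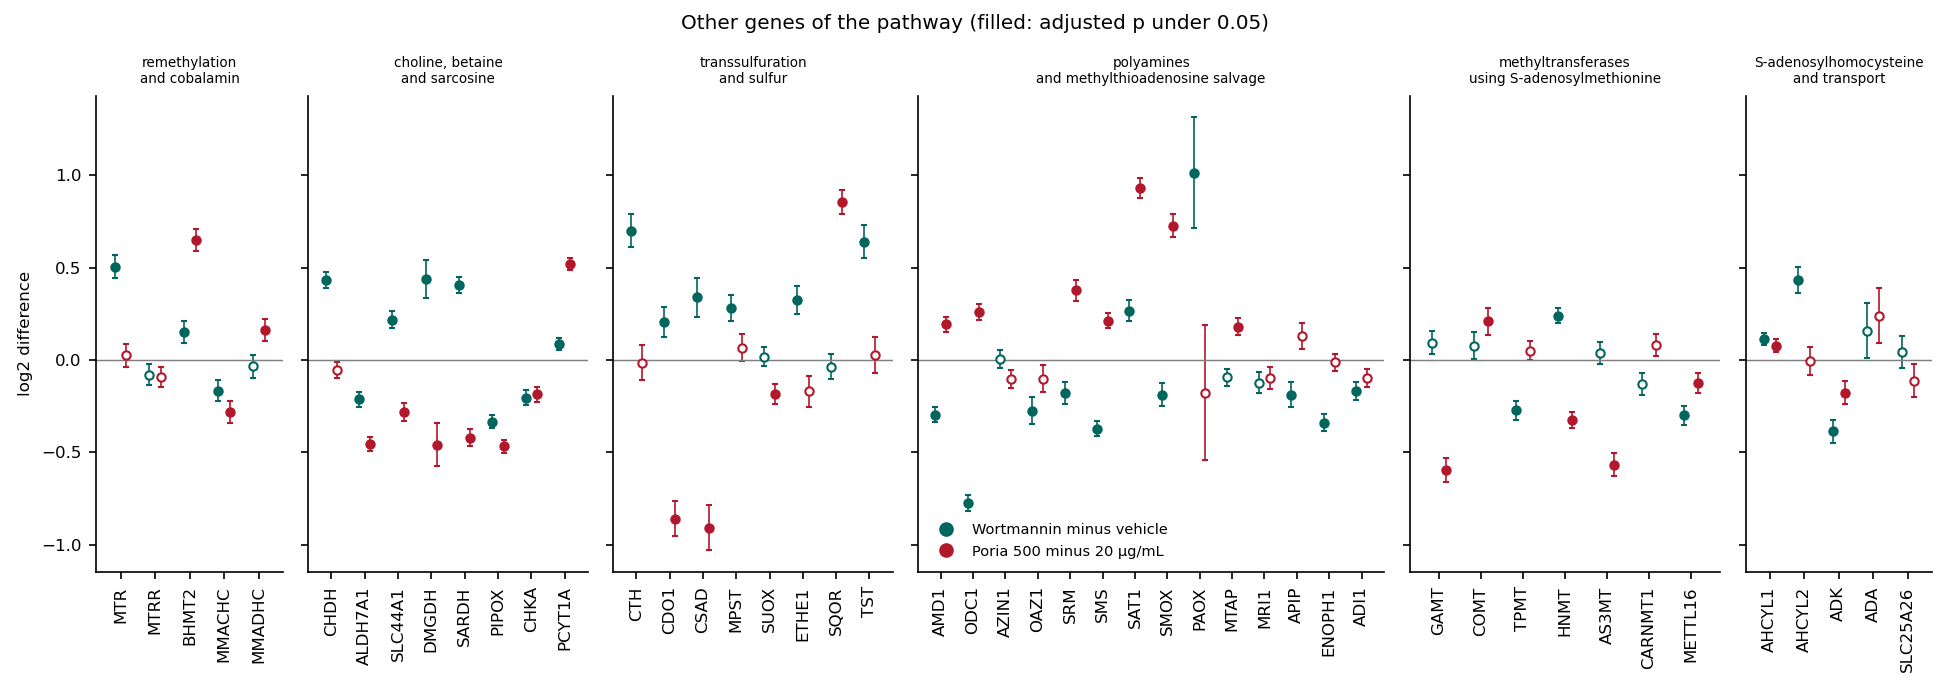
Log2 differences (± SE) of further pathway genes by list, for wortmannin minus vehicle and for Poria 500 minus 20 µg/mL; filled points have an adjusted p under 0.05. Polyamine genes with Poria and transsulfuration genes with wortmannin lie mostly above 0, and most choline, betaine and sarcosine genes lie below 0 with Poria.

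Among the 10432 genes averaging 5 CPM or more, those whose log2 group means tracked GNMT most closely over the 20 groups were ABCC6P1 (Pearson r = 0.994), MMP11 (0.982), RGN (0.981), NAALADL1 (0.979), ABCC6 (0.977) and EXOC3L4 (0.976). ABCC6P1 is a pseudogene copy of the transporter gene ABCC6, and reads may be divided between them. MMP11, a matrix metalloproteinase, averaged 27.6 ± 0.218 CPM with wortmannin, 4.00 ± 0.26 CPM with Poria at 500 µg/mL and 12.9 ± 0.476 CPM in vehicle (SD, n = 3). RGN, a calcium-binding lactonase of liver, averaged 47.3 ± 2.17, 17.7 ± 0.557 and 33.9 ± 0.641 CPM in these groups. The most opposite were RRP12 (-0.971), PPP2R2A (-0.971) and FAM135A (-0.968). Of the members, MAT1A ranked 751, CBS 1651, MAT2A 3095, PEMT 3632, MAT2B 4115 and AHCY 5247 in this order, and BHMT was below the level needed. With Spearman's correlation ABCC6P1 stayed near the top (rho = 0.916, rank 3) while MMP11 (0.799) ranked 49. Of the members, MAT1A (rho = 0.241) then ranked 2714, CBS 1221, MAT2A 2875, PEMT 2847, MAT2B 3345 and AHCY 8531. These are descriptions over groups that share sets, with no test.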

How the data were processed

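The authors deposited one table of expected counts per gene and library for human HepG2 cells, made with FastQC 0.11.9, Trim Galore 0.6.5, STAR 2.7.3a and RSEM 1.3.3 on GRCh38, per the submitters' processing notes; the annotation release and the use of strand are not given in the sources used here. The library kit was directional with 100 bp paired-end reads, per the labels' protocols. Of 270 sample columns, 60 were matched to samples by the code in the labels and 210 were not used. Of the expected counts above 0, 76.1% were whole exactly as written, with no tolerance; all were rounded. A total of 16093 genes passed edgeR's filterByExpr (minimum count 10, minimum total 15). One quasi-likelihood model (edgeR 4.0.16, limma 3.58.1, R 4.3.3) held all 60 libraries with 1 mean per group and TMM scaling, p-values were adjusted by Benjamini-Hochberg over all genes within a comparison, and the threshold was 0.05. There were 16 comparisons of 2 groups and 2 joint tests of equal dose differences. The fit was tested on simulated data. CPM are expected counts scaled by the library's total. Intervals and the level of 3 counts cover counting or library spread only. Symbols came from a name table and from GENCODE v29, which also gave the coordinates, and promoter sequences from RefSeq. Alternatives were DESeq2 1.42.0 (test and size factors), a mean of at least 1 CPM, no filter, only the libraries compared, a replicate block, each library left out, CBS and CBSL summed, exon-union lengths and Spearman's correlation. A fit without Poria 100 replicate 1 (15.2% mitochondrial counts) was added after the data were seen. The members and lists were chosen with earlier results of these data known. Named genes are the 8 members with CBSL, the 4 largest called rises and falls among the other pathway genes for wortmannin and for each extract between doses, and the 6 genes most like and 3 least like GNMT; PEX6 and BHMT2 were added as neighbours, and DMGDH, and SARDH beyond licorice, after their values were seen. NNMT and INMT were not tested for low counts, and 1 further pathway gene that the rule names is counted but not reported here. Vehicle comparisons at 20 and 100 µg/mL are descriptions only.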

Additional observations from a re-analysis of the deposited data

Results flagged for a closer look

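Results are listed here because the difference between 500 and 20 µg/mL was not equal over the 6 extracts in the joint edgeR test. The adjusted p was 3.89e-05 for BHMT, lower by 0.77 on the log2 scale with Poria at 500 µg/mL than at 20 µg/mL and higher by 0.12 with peony, which did not pass its own test. It was 2.85e-15 for MAT1A, with -0.46 for Poria, 0.16 for licorice and 0.15 for angelica. For MAT2A it was 0.000334, with -0.25 for Poria and 0.10 for licorice, which did not pass its own test. For PEMT it was 0.023, or 0.0693 with no filter, with 0.22 for Poria, 0.26 for licorice and -0.08 for ginseng, which did not pass its own test. For the sum of CBS and CBSL it was 3.04e-07, with -0.28 for Poria and 0.27 for peony. Of these results, only the sum of CBS and CBSL also passed the joint edgeR test without Poria (adjusted p = 0.00179). No cause was tested.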

How the results depend on the processing

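No member's difference that passed the test, in the reported fit or in an alternative, changed sign; differences that passed in neither did so in 72 of 1680 values. With 1 library left out 722 of the members' results were unchanged, 41 lost the call and 5 gained one. Unchanged means the same side of the threshold or, for the untested GNMT values with Poria, the same sign and a small shift. The report names the libraries behind the calls lost or gained. The genes called with Atractylodes against vehicle numbered 143, against 331 with no filter, 86 with only the libraries compared, 215 with DESeq2 and 12 to 364 with a library left out. Between doses, the genes called were 8 for Atractylodes (90, 16 and 15 in these fits; 0 to 5 with a library left out), 24 for ginseng (114 with no filter, 37 with DESeq2; 8 to 30), 196 for angelica (315 with no filter, 53 with only the libraries compared; 110 to 217) and 561 for peony (156 with only the libraries compared; 319 to 503). Angelica against peony called 993 genes (1540 with only the libraries compared; 548 to 772), ginseng against vehicle 1648 (856 to 1480) and angelica against vehicle 3045 (1800 to 2587). The members called were 1 with angelica against vehicle, but 0 at a mean of at least 1 CPM, with no filter or with only the libraries compared (0 to 1 with a library left out). They were 1 with angelica between doses, but 0 with no filter or only the libraries compared, and 0 with peony between doses, but 1 (CBS) in the same fits. Angelica against peony called 1 member, but 2 with the replicate block, without Poria 100 replicate 1, with only the libraries compared and with DESeq2 (0 to 2). With a library left out, licorice called 3 to 5 members against vehicle and 3 to 5 against ginseng, and peony 1 to 2 against vehicle. The joint test without Poria called 0 members, but 1 at a mean of at least 1 CPM, with the replicate block, without Poria 100 replicate 1, with only the libraries compared and with DESeq2, and 2 with no filter. Samples with the same replicate number gave weak correlations: in 0 of 16 comparisons were all pair correlations above 0.1 (range -0.132 to 0.139). For Atractylodes and ginseng between doses and for Poria against Atractylodes, each library correlated best with the library of its own number. In the other comparisons 1 or 2 of 3 libraries did so. Whether the numbers pair the samples is therefore not settled. The replicate block left 141 results unchanged in the sense above and moved 2 past the threshold. Size factors of DESeq2 moved the median of all genes by at most 0.007 on the log2 scale. Depth limits GNMT with Poria at 500 µg/mL, which rests on 34 to 38 counts a library. The vehicle's set was not repeated for any extract.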
